A study of Mus musculus with 4 samples.

Results

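The wild-type libraries of this ChIP-seq series set the mark of active promoters, H3K4me3, against the mark of silenced chromatin, H3K9me3, in mouse macrophages. Described here are all peaks of the 2 wild-type libraries, taken by their labels: 31398 H3K4me3 peaks and 19279 H3K9me3 peaks, 50677 of the 96551 peaks in the 4 libraries of the series. Both libraries came from thioglycollate broth-induced peritoneal macrophages of C57BL/6 mice aged 8 weeks and labelled wild type, kept in DMEM with serum after harvest. The antibodies were ab8580 for H3K4me3 and ab8898 for H3K9me3, both from abcam. Whether animals were pooled is not given in the sources used here. The other 2 libraries, from Sun knockout mice, were only counted.

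H3K4me3 is laid down at promoters, mostly at CpG-rich ones, by the SET1 and MLL (Kmt2) enzymes, and is the classic sign of a start site that is active or poised. H3K9me3 is written by SUV39H and SETDB1 enzymes, is read by HP1 proteins, and covers pericentromeric repeats, transposons and clusters of zinc finger genes. Along one allele the marks are largely kept apart, but imprinting control regions carry active marks on one parental allele and H3K9me3 on the other, and some germline promoters are held silent in body cells. Thioglycollate-elicited macrophages are inflammatory phagocytes recruited to the peritoneal cavity, and ChIP-seq on such a population averages over alleles and cells, so a region under both marks need not carry both on one nucleosome.

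Promoters on which the marks differed are shown first, because CpG content turned out to differ between the classes of start. Each line is the 250 bases before a start site, 5′ to 3′ on the gene's strand, credited to RefSeq (GRCm38.p6, the assembly behind mm10), and shows each CpG in capitals.
Mest (both marks, chr6:30737800-30738049, plus strand): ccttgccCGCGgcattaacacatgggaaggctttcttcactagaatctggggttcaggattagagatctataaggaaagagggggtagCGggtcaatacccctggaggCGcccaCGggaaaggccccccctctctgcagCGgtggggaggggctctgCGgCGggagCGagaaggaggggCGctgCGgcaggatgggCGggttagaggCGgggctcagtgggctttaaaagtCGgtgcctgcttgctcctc
Peg3 (both marks, chr7:6730420-6730669, minus strand): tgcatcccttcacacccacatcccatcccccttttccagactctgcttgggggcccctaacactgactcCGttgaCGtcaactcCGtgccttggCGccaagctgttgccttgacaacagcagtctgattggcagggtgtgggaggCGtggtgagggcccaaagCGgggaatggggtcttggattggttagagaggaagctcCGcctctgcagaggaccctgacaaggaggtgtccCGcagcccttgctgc
Dazl (both marks, chr17:50293621-50293870, minus strand): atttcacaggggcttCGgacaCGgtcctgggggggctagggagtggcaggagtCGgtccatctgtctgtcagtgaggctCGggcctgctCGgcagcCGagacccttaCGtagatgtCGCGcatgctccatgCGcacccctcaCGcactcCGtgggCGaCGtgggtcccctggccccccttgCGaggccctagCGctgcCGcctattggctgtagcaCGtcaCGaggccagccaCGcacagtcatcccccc
Mael (H3K9me3 alone, chr1:166238745-166238994, minus strand): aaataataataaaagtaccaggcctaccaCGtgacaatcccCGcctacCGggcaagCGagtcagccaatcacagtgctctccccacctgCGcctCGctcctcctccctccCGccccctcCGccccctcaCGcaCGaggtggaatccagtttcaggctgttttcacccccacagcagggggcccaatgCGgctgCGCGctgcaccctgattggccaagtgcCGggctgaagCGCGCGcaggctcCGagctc
Sycp1 (H3K9me3 alone, chr3:102936101-102936350, minus strand): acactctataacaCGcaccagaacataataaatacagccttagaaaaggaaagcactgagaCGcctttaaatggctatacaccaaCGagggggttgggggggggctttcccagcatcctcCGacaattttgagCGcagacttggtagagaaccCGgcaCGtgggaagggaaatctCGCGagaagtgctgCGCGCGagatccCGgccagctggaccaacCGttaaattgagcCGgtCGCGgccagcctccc
Irf8 (H3K4me3 alone, chr8:120736108-120736357, plus strand): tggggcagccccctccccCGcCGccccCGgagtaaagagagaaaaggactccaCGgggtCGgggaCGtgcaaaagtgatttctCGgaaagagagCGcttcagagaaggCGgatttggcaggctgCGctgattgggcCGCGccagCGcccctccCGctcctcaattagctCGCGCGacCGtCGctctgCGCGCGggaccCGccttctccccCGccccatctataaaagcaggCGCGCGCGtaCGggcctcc
Lyz2 (H3K4me3 alone, chr10:117282273-117282522, minus strand): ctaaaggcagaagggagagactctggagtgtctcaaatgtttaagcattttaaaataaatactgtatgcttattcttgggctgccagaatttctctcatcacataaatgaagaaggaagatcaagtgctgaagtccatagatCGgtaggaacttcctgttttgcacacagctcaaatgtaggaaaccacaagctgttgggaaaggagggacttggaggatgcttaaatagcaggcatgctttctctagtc
Mest and Peg3 are imprinted genes expressed from the paternal allele, Dazl, Mael and Sycp1 act in germ cells and meiosis, Irf8 is a transcription factor of the macrophage lineage and Lyz2 encodes lysozyme. The H3K9me3 peak covered all 250 bases shown for Mest and for Dazl, 217 for Sycp1, 78 for Mael and 63 for Peg3, and none for Irf8 or Lyz2. The H3K4me3 peak covered all 250 bases for Mest, Dazl and Irf8, 223 for Peg3 and 121 for Lyz2, and none for Mael or Sycp1. The lines hold 29 CpGs for Irf8, 20 for Dazl, 18 for Mael, 17 for Sycp1, 14 for Mest, 8 for Peg3 and 1 for Lyz2, so the promoter with the fewest and the one with the most were both under H3K4me3 alone.

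The libraries had similar depth but very different enrichment. After removal of duplicates the H3K4me3 library held 29681491 tags and the H3K9me3 library 27727997. H3K4me3 peaks covered 41.2 Mb, 2.20% of the effective genome, and held 17.8% of these tags, whereas H3K9me3 peaks covered 5.68 Mb, 0.304% of it, and held 1.69%. The median H3K4me3 peak had 89 tags over 1050 bp and the median H3K9me3 peak 16 tags over 245 bp, and 14919 H3K4me3 peaks but only 286 H3K9me3 peaks had at least 100 tags. The H3K9me3 list thus describes short, local maxima of the mark, and wide domains that raise their own local background were not measured. Peaks were called without a control library, and the caller's fragment estimate was 142 bp for H3K4me3 and 66 bp for H3K9me3. With 1 library per mark no comparison has a replicate check and no test was run. All intervals of shares are exact (Clopper-Pearson) 95% intervals that cover counting error only.

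The labelled cell type was checked against 9 macrophage markers. All 9, among them Csf1r, Adgre1 and Spi1, had an H3K4me3 peak at the start, with 38 to 621 tags and a median of 234, and none had an H3K9me3 peak there. In the wider list of 39 macrophage identity genes 31 had H3K4me3 at the start and 8 had neither mark, beside 64.5% of all protein-coding genes with H3K4me3. Of the wider lists of other cell types, 3 of 22 granulocyte and mast cell, 6 of 14 B cell, 7 of 20 T and NK cell and 12 of 18 mesothelial and fibroblast markers had H3K4me3. The last of these shares is near that of all protein-coding genes. The strongest in these lists were Gata2 with 623 tags, Ighm with 529, Gata3 with 409 and Pdgfra with 591. The granulocyte markers S100a8, Elane, Mpo and Ly6g had neither mark. For B cells Cd79a and Ms4a1 had neither mark and Pax5 had 38 H3K4me3 tags, and for T cells Cd3e, Cd3d and Cd8a had neither, while Cd4 had 277 and Lck 216. Of 5 mesothelial and fibroblast markers set for the same check as the 9 macrophage markers, 4 had H3K4me3 and Msln had neither mark. Over these 5 the median was 42 H3K4me3 tags and the maximum 199. In the wider list Wt1 had 321 H3K4me3 tags and Lrrn4 245. The share of other cells in the preparation was not tested.

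H3K9me3 peaks lay in H3K4me3 peaks at a higher share than the genome length that H3K4me3 covers. Of the 19279 H3K9me3 peaks 4316 overlapped an H3K4me3 peak by at least 1 bp, a share of 22.4% (21.8 to 23.0), while H3K4me3 peaks covered 2.20% of the effective genome. Of the 31398 H3K4me3 peaks 3954 overlapped an H3K9me3 peak, 12.6% (12.23 to 12.97), beside a covered length of 0.304%. Expressed as density, H3K9me3 summits numbered 103 per Mb inside H3K4me3 peaks and 8.22 per Mb outside, a ratio of 12.5. Of the overlapping H3K9me3 peaks 88.9% lay wholly within the H3K4me3 peak.

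The share rose with the strength of the H3K9me3 peak. It was 12.8% (12.04 to 13.65) for H3K9me3 peaks of 11 to 14 tags, 18.6% for 15 to 24 tags, 40.2% for 25 to 49 tags, 63.3% for 50 to 99 tags and 74.8% (69.4 to 79.7) for those of 100 tags or more. The strongest H3K9me3 peaks were therefore mostly peaks of both libraries. Along the H3K4me3 list the course was not monotonic. The share was 9.37% (8.82 to 9.94) for H3K4me3 peaks of 17 to 49 tags, 5.84% for 50 to 99, 7.44% for 100 to 249, 22.2% for 250 to 499 and 42.5% (40.3 to 44.7) for 500 or more. Per Mb of peak the weakest class held 159 H3K9me3 summits, the middle one 55.6 and the strongest 141, so H3K9me3 summits were denser at both ends of the H3K4me3 list than in its middle. The shares depended on the peaks admitted: when only peaks scoring 100 or more were kept for either mark, 38.4% of H3K9me3 and 5.35% of H3K4me3 peaks overlapped the other mark, and 3.02% of H3K4me3 peaks had at least 50% of their length covered by H3K9me3.

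**Figure D1:**
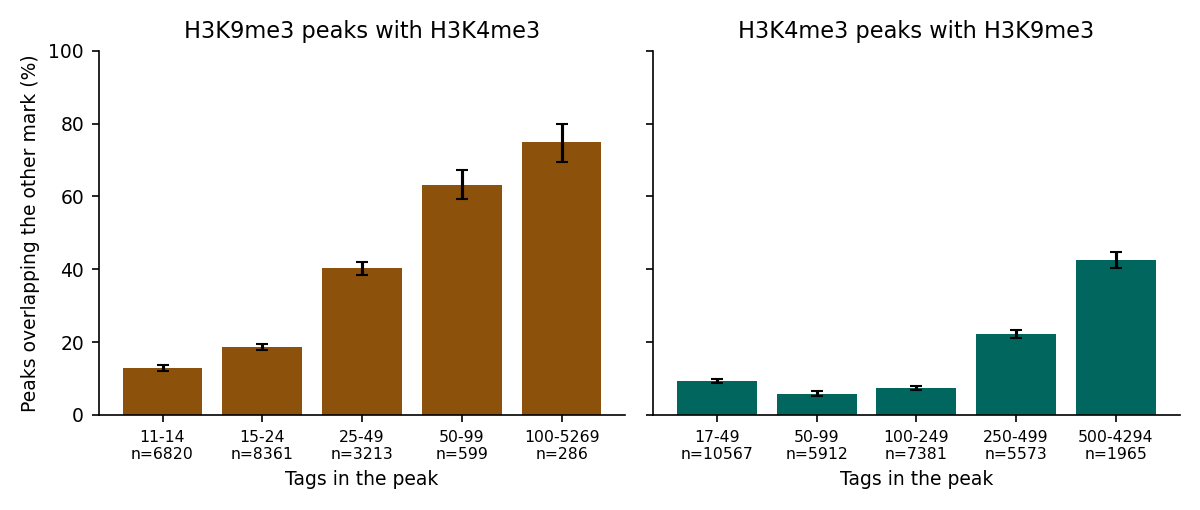
Share of peaks overlapping a peak of the other mark (%, vertical axis), by tags in the peak (horizontal axis), for H3K9me3 peaks (left) and H3K4me3 peaks (right). Bars are shares and error bars exact 95% intervals; the left panel climbs from 12.8% to 74.8%, while the right panel dips to 5.84% before it reaches 42.5%.

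H3K9me3 peaks with H3K4me3 had a median of 22 tags over 301 bp and those without 16 tags over 236 bp, and the median fold enrichment given by the authors' caller was 8.17 in both. H3K4me3 peaks with H3K9me3 had a median of 272 tags over 1573 bp, and those without 81 tags over 1006 bp. Within the H3K4me3 peak the H3K9me3 summit sat near the centre. Of the 4240 H3K9me3 summits inside an H3K4me3 peak 77.9% (76.7 to 79.2) fell in its middle 50%, the median distance to the H3K4me3 summit was 86 bp, and 76.8% were within 250 bp. This held for H3K9me3 peaks of 11 to 14 tags (79.5% in the middle 50%) and for those of 100 tags or more (71.8%). No control library was used here, so the part of signal common to any antibody at these places was not tested.

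**Figure D2:**
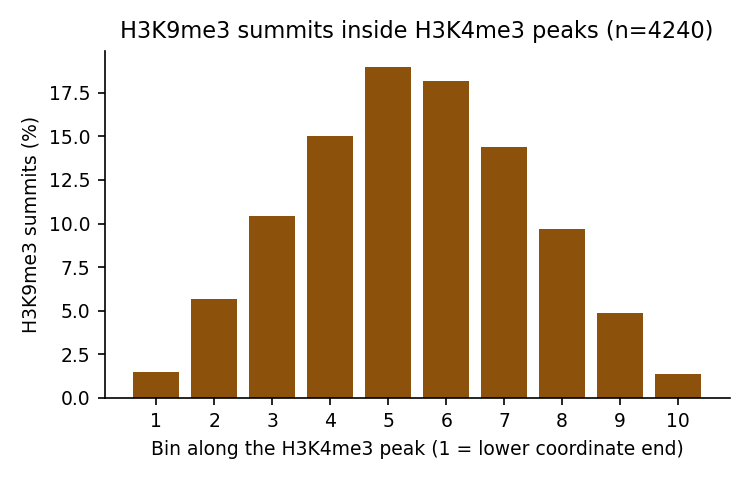
Position of the 4240 H3K9me3 summits that lie inside an H3K4me3 peak, as the percent of summits (vertical axis) in each of 10 equal bins along the H3K4me3 peak from its lower to its higher coordinate (horizontal axis). Summits pile up in the central bins, and 77.9% lie in the middle 50% of the peak.

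The regions under both marks fell into 2 kinds. Merging each H3K4me3 peak with the H3K9me3 peaks on it gave 3953 regions of 6.94 Mb in all, most of them (3617) with 1 peak of each mark. Tag counts were not scaled between the libraries, which differ in antibody and enrichment, so their ratio does not compare amounts of the marks. The ratio of H3K9me3 to H3K4me3 tags in a region had a median of 0.094, with quartiles of 0.046 and 0.724. Its distribution had 1 hump far below 1 and another around 1: in 2047 regions (51.8%) H3K4me3 had at least 10 times the tags of H3K9me3, and in 739 (18.7%) H3K9me3 had as many or more. Split at a ratio of 0.25, a value chosen after the distribution was seen, the 2463 regions below it had medians of 412 H3K4me3 and 20 H3K9me3 tags over 2060 bp, 71.6% (69.8 to 73.4) had a listed protein-coding start within 1000 bp, and 96.5% touched a gene of any kind. With either gene end counted for genes that have no listed start, 89.2% (87.9 to 90.4) were at a start or end. The 1490 regions above it had medians of 37 H3K4me3 and 35 H3K9me3 tags over 688 bp, 6.24% (5.07 to 7.59) had a listed start, 8.99% (7.59 to 10.6) a start or end by the wider rule, and 44.1% touched a gene. The first kind is thus made of strong H3K4me3 promoters with a small H3K9me3 peak, and the second of short places away from promoters where both libraries had similar tag counts.

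**Figure D3:**
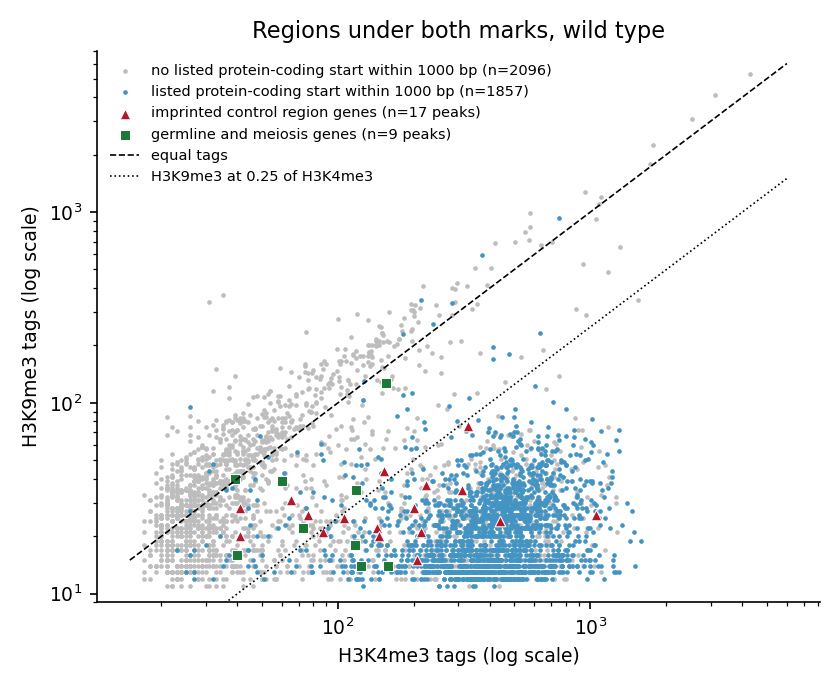
H3K4me3 tags (horizontal, log scale) against H3K9me3 tags (vertical, log scale) in each of the 3953 regions under both marks; blue points have a listed protein-coding start within 1000 bp, triangles and squares are peaks at imprinted and germline genes, and the lines mark equal tags and a ratio of 0.25. Blue points gather below the dotted line near 412 H3K4me3 and 20 H3K9me3 tags, grey points follow the line of equal tags up to the region with 4294 and 5269, and Dazl, Ddx4 and Meioc lie between the clouds or on the line.

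The regions with the most tags of both marks belonged to the second kind. The highest, chr14:19415351-19419815, had 4294 H3K4me3 and 5269 H3K9me3 tags and held no listed gene. Next came chr17:39842898-39849064 with 3123 and 4111 tags, over the ribosomal RNA sequence Rn18s-rs5, and chr13:119595424-119603680 with 2535 and 3070 tags, inside Tmem267. A pair of regions on chromosome 2, chr2:98666027-98667641 with 1720 and 1787 tags and chr2:98662135-98663315 with 1100 and 1204, lay in no listed gene. Duxf3, a member of the multicopy Dux family of early-embryo homeobox genes, had 753 and 926 tags at chr10:58229402-58234399. Of the 10 regions ranked by the smaller of both tag counts, H3K9me3 had the more tags in all but 1, which lay over LOC100504180 beside Duxf3 with 1057 H3K4me3 and 916 H3K9me3 tags. Ribosomal RNA and Dux genes are present in many near-identical copies, so reads there cannot be assigned to 1 copy with certainty. No list of regions with high signal in unenriched DNA was used, and the part of such signal in these regions was not tested.

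At gene starts H3K9me3 almost never stood alone. A start was counted as marked when a peak lay within 1000 bp of it, or of either gene end where no start was listed. Of 21887 protein-coding genes 64.5% had H3K4me3 at the start and 11.7% had H3K9me3. By class, 11678 genes (53.4%) had H3K4me3 alone, 2435 (11.1%) both, 133 (0.608%, 0.509 to 0.720) H3K9me3 alone and 7641 (34.9%) neither. So 94.8% (93.9 to 95.6) of the starts with H3K9me3 also had H3K4me3, and 17.3% (16.6 to 17.9) of those with H3K4me3 also had H3K9me3. In 2372 of the 2435 genes with both (97.4%) a peak of each mark overlapped. Genes with both had more H3K4me3, a median of 411 tags with quartiles of 288.5 and 543, than genes with H3K4me3 alone, with a median of 240 and quartiles of 143 and 365. The quartile ranges of the classes overlapped. Their H3K9me3 peaks were small, with a median of 19 tags, beside a median of 18 in genes with H3K9me3 alone. When only peaks scoring 100 or more were kept for either mark, 639 genes had both marks and 33 H3K9me3 alone, and 95.1% of the starts with H3K9me3 had H3K4me3.

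The highest H3K4me3 count at a start, 1685 tags, was in a peak shared by Pbx2, a homeobox cofactor, and Gpsm3, a regulator of G protein signalling, and a peak of 1630 tags was shared by Pcnx3 and the kinase gene Map3k11. Bbc3, which encodes the pro-apoptotic protein PUMA, had 1581 tags, the growth factor gene Pdgfa 1532, the proton pump gene Tcirg1 1475 and the transcription factor gene Foxo3 1465, all with no H3K9me3 within 1000 bp of the start. Farther along the same H3K4me3 peaks lay H3K9me3 peaks of 19 tags at Bbc3 and 27 at Foxo3. Among the 10 leading genes 2 had both marks at the start, beside 17.3% of all H3K4me3 starts: Niban2 with 1507 H3K4me3 and 14 H3K9me3 tags, and Ubtf, a factor of ribosomal RNA transcription, with 1483 and 21.

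The genes with the strongest H3K9me3 on an H3K4me3 start included imprinted genes and members of repeated families. Cdkn1c, an imprinted inhibitor of the cell cycle, had 366 H3K4me3 and 183 H3K9me3 tags, with the H3K9me3 peak at chr7:143458988-143461057. Klf14, an imprinted transcription factor gene, had 221 and 147 tags, with H3K9me3 at chr6:30957647-30959055. Asmt, which encodes the last enzyme of melatonin synthesis, had 239 and 259 tags. Dazl, a germline gene with 155 and 127 tags, and Tmem267, with 411 and 166 tags, were also among these 15 genes. Others were predicted genes or belonged to repeated families, such as A530032D15Rik of the Sp100 repeat cluster on chromosome 1 with 181 and 229 tags. The 133 genes with H3K9me3 alone at the start were led by C130026I21Rik of the same cluster with 528 tags and by the predicted genes Gm40367 with 325, Gm40364 with 313 and Gm40365 with 218. Behind them came Sp110, a nuclear body protein gene, with 139 tags, the tumour suppressor gene Hic1 with 134 at chr11:75165820-75167365, Podnl1 with 112, and Ugt1a1, the bilirubin-conjugating enzyme of the liver, with 101.

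The gene lists differed mainly in how far H3K4me3 reached, and H3K9me3 starts reached 43.6% in the imprinted list and 28.9% in the germline list. Over all protein-coding genes the shares to read them against are 64.5% for H3K4me3, 11.7% for H3K9me3 and 11.1% for both. Genes at imprinted control regions had both marks in 15 of 39 (38.5%, 23.4 to 55.4), H3K4me3 alone in 17, H3K9me3 alone in 2 and neither in 5. Germline and meiosis genes had both in 8 of 45 (17.8%, 8.00 to 32.1, which includes the 11.1%), H3K9me3 alone in 5, H3K4me3 alone in 5 and neither in 27. The imprinted list includes noncoding genes, and neighbouring genes of 1 control region share peaks, so its members are not independent.

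**Figure D4:**
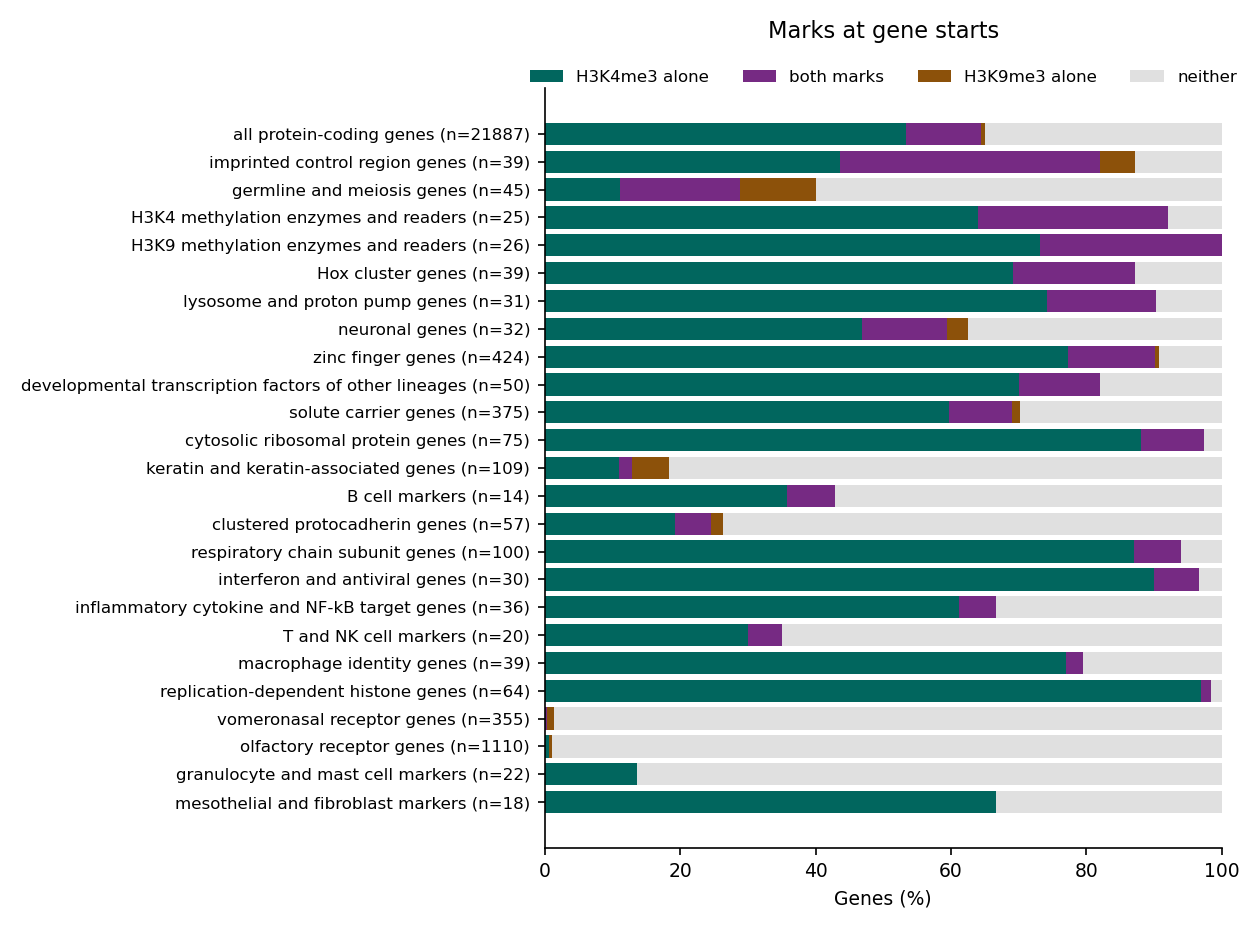
Percent of the genes of each list (horizontal axis) with H3K4me3 alone, both marks, H3K9me3 alone or neither mark within 1000 bp of the start, for all protein-coding genes at the top and for 24 lists ordered by their share with H3K9me3. Both marks reach 38.5% in the imprinted list against 11.1% of all protein-coding genes, and H3K9me3 alone is widest in the germline list, with 5 of 45 genes.

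Where imprinted genes carried both marks, H3K4me3 had the larger tag count. Igf2r, the receptor that clears IGF2, had 326 H3K4me3 tags at its start and an H3K9me3 peak of 76 tags at chr17:12768911-12769638. Inside it, Airn, the noncoding RNA that silences Igf2r in cis, had 311 and 35 tags at its own start, with H3K9me3 at chr17:12742210-12742690. Mest, a hydrolase-like gene, had 152 and 44 tags, with H3K9me3 at chr6:30737773-30738336 over the promoter printed above. Grb10, an adaptor that restrains insulin signalling, had 200 and 28. Peg3, a zinc finger gene, shared with Usp29 a start with 106 and 25 tags, and Peg10, derived from a retrotransposon, shared with Sgce a start with 145 and 20. Over these genes the ratio of H3K9me3 to H3K4me3 tags ran from 0.113 at Airn to 0.289 at Mest.

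Nap1l5, a gene within an intron of Herc3 by common annotation, had the highest ratio of the list, 0.683, with 41 H3K4me3 and 28 H3K9me3 tags. The lowest, 0.025, was at Gnas, which encodes the stimulatory G protein alpha subunit, with 1049 and 26. Inpp5f had 440 and 24 tags and Igf2, a fetal growth factor gene, 214 and 21. In the bodies of Impact and Slc38a4 both marks also overlapped, with 223 and 37 tags and with 65 and 31. Other members had H3K9me3 with no H3K4me3 on it: 39 tags in Snrpn, 37 at Kcnq1ot1 inside Kcnq1, 27 in Plagl1, 25 at Nnat inside Blcap, and 18 at the start of Meg3. In all, the list touched 36 distinct H3K9me3 peaks of 12 to 76 tags, and 17 of them (47.2%, 30.4 to 64.5) overlapped H3K4me3. The 22.4% of all H3K9me3 peaks is not a like share, because the 36 were taken at starts and in gene bodies. Of all 8076 H3K9me3 peaks with a summit inside a protein-coding gene 3152 overlapped H3K4me3, a share inside that interval.

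Germline genes with both marks had mostly weaker H3K4me3 and a higher median ratio than imprinted genes, but the ranges overlapped. Dazl, an RNA-binding protein of germ cells, had 155 H3K4me3 tags and 127 H3K9me3 tags, with H3K9me3 at chr17:50292748-50293908. Ddx4, the germ cell helicase also called Vasa, had 39 and 40. Meioc, which maintains the meiotic programme, had 60 and 39, and Stag3, a meiotic cohesin subunit, 118 and 35. Dmc1, the meiotic recombinase, had 73 and 22, and Smc1b, another meiotic cohesin subunit, 40 and 16. Lower ratios were found in the body of Tdrd6, with 117 and 18 tags (0.154), at Ddx25 with 123 and 14 (0.114) and at Tex15 with 158 and 14 (0.089). Over the 9 overlapping pairs the ratio had a median of 0.301, from 0.089 to 1.03, against 0.166, from 0.025 to 0.683, over the 17 pairs of the imprinted list and 0.094 over all regions. H3K9me3 alone stood at Mael with 30 tags, Sycp1 with 27, Sycp2 with 26, Sohlh2 with 21 and Tdrd1 with 15. Mael and Tdrd1 belong to the piRNA pathway, Sycp1 and Sycp2 to the synaptonemal complex, and Sohlh2 is a transcription factor of early germ cells. Tdrkh, with 147 tags, Tex14 with 99 and the meiotic nuclease gene Spo11 with 65 had H3K4me3 alone.

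Macrophage genes mostly had H3K4me3 and seldom H3K9me3 at the start. Of 39 identity genes 30 had H3K4me3 alone, 8 neither and 1 both. The exception was Cebpa, a myeloid transcription factor gene, whose H3K4me3 peak of 6523 bp held 1391 tags and an H3K9me3 peak of 30 tags. In the gene body 14 of the 39 (35.9%) had an H3K9me3 peak, beside 24.5% of all protein-coding genes. Irf8 had 1014 H3K4me3 tags, Bhlhe40 917 and the cathepsin gene Ctsb 804. Of 36 inflammatory and NF-kB target genes 22 had H3K4me3 alone, led by Zc3h12a, a nuclease that degrades cytokine mRNAs, with 1201 tags, and 12 had neither. The chemokine gene Cxcl1, with 148 and 18 tags, and the NF-kB inhibitor gene Nfkbia, with 700 and 18, had both. Of 30 interferon and antiviral genes 27 had H3K4me3 alone, among them Trim25 with 822 tags, Irf1 with 686 and Irf7 with 337. Ifnar2, an interferon receptor subunit, had 415 and 23, and Oasl1, which restrains interferon production, had 126 H3K4me3 and 104 H3K9me3 tags. Oasl1 was the member of these 3 lists with the most H3K9me3 at the start, at chr5:114922374-114922628. That peak was 255 bp wide, lay outside the gene model and had a fold enrichment of 47.0, against a median of 8.17 over all H3K9me3 peaks. Its tag counts for the 2 marks were similar, as in the second kind of region, and signal common to any antibody was not tested there. The shares of starts under both marks were 2.56% (0.065 to 13.5), 5.56% (0.680 to 18.7) and 6.67% (0.818 to 22.1), and all 3 intervals include the 11.1% of all protein-coding genes.

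Lysosome and proton pump genes had both marks in 5 of 31 (16.1%, 5.45 to 33.7), beside 11.1% of all protein-coding genes. Among them were Lamp1 with 462 and 40 tags and Tfeb, the master regulator of lysosome genes, with 921 and 15. Genes for the enzymes of both marks mostly had H3K4me3 at the start, and some also had H3K9me3. All 26 genes of H3K9 methylation enzymes and readers had H3K4me3 at the start, and 7 (26.9%, 11.6 to 47.8) also H3K9me3. These included Ehmt2, the G9a methyltransferase, with 803 and 47 tags, Tasor, a subunit of the HUSH silencing complex, with 342 and 31, Suv39h2 with 369 and 22, and Trim28, the KAP1 corepressor, with 714 and 13. Of 25 genes of H3K4 methylation 23 had H3K4me3 and 7 (28.0%, 12.1 to 49.4) both. Among them were Kmt2a with 681 and 38, Kmt2d with 1114 and 35, and Kmt2b with 764 and 19. In these genes H3K9me3 was a small peak on a strong promoter, as in the first kind of region. Of all H3K4me3 starts 17.3% also had H3K9me3, a share inside the intervals of all 3 lists. The 11.1% of all protein-coding genes lies inside the lysosome interval only.

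Genes of other lineages mostly had H3K4me3 alone or neither mark, as did all protein-coding genes, with 53.4% and 34.9%. Of 50 developmental transcription factor genes 35 had H3K4me3 alone, 6 both and 9 neither. Of 39 Hox genes 27 had H3K4me3 alone and 7 both, among them Hoxd8 with 281 and 52 tags and Hoxd11 with 148 and 43. Of 32 neuronal genes 15 had H3K4me3 alone, 4 both, 1 H3K9me3 alone and 12 neither. That 1 was Cntnap2, a very long neuronal adhesion gene, with 14 tags at a start and 13 H3K9me3 peaks along its body. Granulocyte and mast cell markers had neither mark in 19 of 22 and mesothelial and fibroblast markers H3K4me3 alone in 12 of 18, with no H3K9me3 start in either list. T and NK cell markers had neither in 13 of 20, and B cell markers in 8 of 14.

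Sensory receptor genes mostly had neither mark. Of 1110 olfactory receptor genes 1098 had neither, 7 H3K4me3 alone and 5 H3K9me3 alone, and of 355 vomeronasal receptor genes 350 had neither. Of 109 keratin and keratin-associated genes 89 had neither, 12 H3K4me3 alone, 6 H3K9me3 alone and 2 both, with Krtap5-3 at 40 H3K9me3 tags. Housekeeping lists stood at the other end. Of 75 cytosolic ribosomal protein genes 66 had H3K4me3 alone and 7 both, such as Rpl10a with 659 and 47 tags, and of 100 respiratory chain genes 87 and 7, such as Uqcrh with 797 and 17. Of 64 replication-dependent histone genes 62 had H3K4me3 alone, and neighbouring histone genes shared peaks.

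Zinc finger genes mostly had H3K4me3 at the start, and their H3K9me3 peaks were spread along the gene. Of 424 such genes 382 had H3K4me3 at the start, 328 of them alone and 54 (12.7%) with H3K9me3, and 3 had H3K9me3 alone. In the gene body 192 (45.3%) had an H3K9me3 peak, against 24.5% of all protein-coding genes. Zfp978, on chromosome 4, had 38 H3K9me3 peaks with 2618 tags in its body, and at a gene end 249 H3K4me3 and 98 H3K9me3 tags. Its gene model contains those of Zfp991 and Zfp988, so peaks in those genes count for Zfp978 as well. Zfp993 had 44 peaks with 1967 tags and neither mark at its listed start. When each gene with a listed start was cut into 5 equal bins from its start, zinc finger genes had 19.7% of their 284 H3K9me3 summits in bin 1 and 22.2% (17.5 to 27.5) in bin 5. Other protein-coding genes had 40.1% (38.8 to 41.3) of 6164 in bin 1 and 14.1% (13.24 to 14.99) in bin 5. The summits came from 156 zinc finger and 4013 other genes. Summits of 1 gene are not independent, genes with many peaks weigh more, and a peak in overlapping gene models counts for each. These genes arose by duplication, so reads can be shared between copies. Clustered protocadherin genes, adhesion genes whose isoforms are chosen in neurons, had H3K9me3 in the body in 30 of 57 and at the start in 4, but their gene models overlap and share peaks. Pcdhgb6 had 78 and 36 tags at a gene end and Pcdhgc3 444 H3K4me3 tags alone.

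The body ran from gene start to gene end, so peaks inside the gene at its start counted as body too. Over all protein-coding genes 5356 (24.5%) had an H3K9me3 peak in the body, and 2946 of these had none at the start. Of the genes with H3K9me3 in the body 81.6% (80.5 to 82.6) had H3K4me3 at the start, against 58.9% (58.2 to 59.7) of the genes without. Of the starts with H3K9me3 94.8% had H3K4me3, so peaks at the start enter this difference, and their part in it was not tested. Gene length moved with this difference. Below 10 kb the shares were 78.8% and 42.1%, from 10 to 30 kb 83.6% and 68.4%, from 30 to 100 kb 83.05% and 76.61%, and above 100 kb 79.4% (77.3 to 81.3) and 79.8% (76.9 to 82.5). In the longest genes, 66.5% of which had H3K9me3 in the body, there was no difference beyond the intervals. The largest sums in the body were at Sfi1, a centrosome protein gene, with 4204 tags in 5 peaks beside 416 H3K4me3 tags at the start, and at Tmem267 with 3367 in 4. Sp140, a reader protein of the Sp100 family, had 1664 tags in 5 peaks and neither mark at the start. Ahnak2, a very large scaffold protein gene, had 1 H3K9me3 peak of 1091 tags in its body and 1030 H3K4me3 tags at its start.

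H3K9me3 peaks with and without H3K4me3 lay in different places. Those with H3K4me3 had a median distance of 1664 bp from their summit to the nearest listed protein-coding start, and 47.2% were within 1000 bp. Those without had a median of 38330 bp, and 1.62% were within 1000 bp. Summits were inside a protein-coding gene for 73.0% (71.7 to 74.3) of the former and 32.9% (32.2 to 33.7) of the latter, beside 71.6% of all H3K4me3 peaks. Chromosome 18 has no listed start, and its 660 H3K9me3 peaks are left out of the distances. Where at least 10 H3K9me3 peaks followed each other with gaps of at most 10 kb, 10 clusters with 127 peaks were found, and each held H3K4me3 peaks. The longest, chr4:146430525-146502294, had 17 H3K9me3 and 9 H3K4me3 peaks around Zfp992 and Zfp981, and 4 more clusters lay nearby on chromosome 4 among Zfp982, Zfp985, Zfp984 and Zfp978.

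CpG content differed between the classes of start. The observed over expected CpG ratio, in the 300 bp from 250 before to 50 after each of 21263 listed protein-coding starts, was not used to choose the classes. Its median was 0.86 (0.85 to 0.87) at 2202 starts with both marks, 0.74 (0.73 to 0.75) at 11380 with H3K4me3 alone, 0.36 (0.26 to 0.43) at 128 with H3K9me3 alone and 0.18 at 7553 with neither, where the intervals are from order statistics. A ratio of at least 0.6 was reached by 87.1% of starts with both marks, 69.2% with H3K4me3 alone, 25.8% with H3K9me3 alone and 4.14% with neither. Starts with both marks were thus the most CpG-rich class, and starts with H3K9me3 alone spread from CpG-poor to CpG-rich. Mael and Sycp1, printed above, are at the CpG-rich end of the last class with 0.78 and 0.87. The printed starts of Irf8, at 1.03, and Lyz2, at 0.068, lie far apart in the class with H3K4me3 alone. Another listed Irf8 start, also under H3K4me3, had 0.36.

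**Figure D5:**
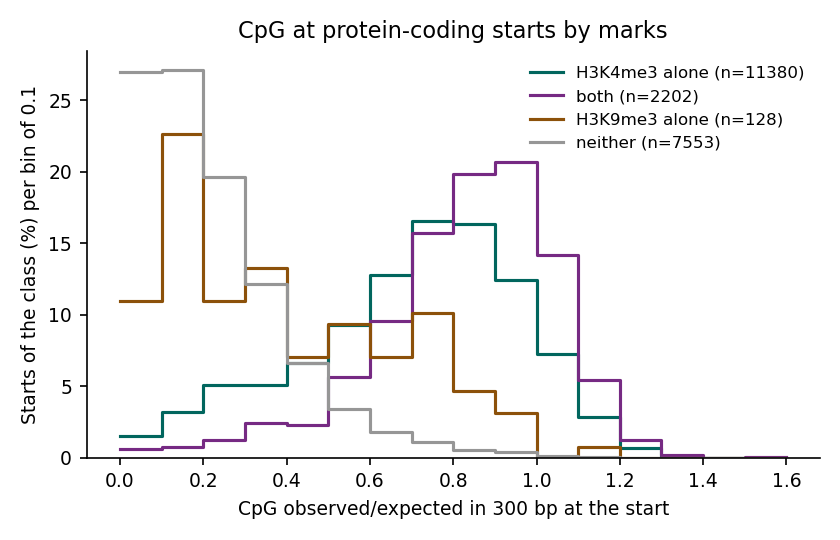
CpG observed over expected ratio in 300 bp at protein-coding starts (horizontal axis) as percent of the starts of each class per bin of 0.1 (vertical axis), 1 stepped line per class. Starts with both marks peak farthest to the right (median 0.86), then H3K4me3 alone (0.74); starts with H3K9me3 alone spread widely around 0.36 and those with neither mark crowd near 0.18.

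The same windows were searched on both strands for 3 hexamers: TGCCGC, the core of the motif read by the imprint-maintaining factor ZFP57 when methylated, CACGTG, the E-box bound by factors that include those silencing germline genes, and TCCCGC, part of the sites of E2F factors. Matches of different hexamers can share bases at their ends. TGCCGC was present in 26.9% of starts with both marks, 18.3% with H3K4me3 alone, 6.25% with H3K9me3 alone and 14.1% of all, and in 12 of the 49 starts of imprinted genes (24.5%). In the Mest promoter it begins at positions 9 and 184 of the printed line, both times as its reverse complement. It also begins at position 196 of the Dazl line, and the other printed lines, Peg3 among them, hold none. CACGTG was present in 10.2% of starts with both marks, 9.91% with H3K4me3 alone, 10.2% with H3K9me3 alone and 7.84% of all. Starts of germline genes held it in 22 of 46 (47.8%), and it begins at position 28 of the Mael line and at 157 of the Sycp1 line. TCCCGC was present in 46.5% of starts with both marks, 35.5% with H3K4me3 alone, 14.8% with H3K9me3 alone and 25.8% of all, in 26.5% of the imprinted and in 37.0% of the germline starts. It begins at position 160 of the Mest line, 233 of Peg3, 108 of Mael, and 151 and 191 of Irf8. The classes also differed in base composition. Median GC content of the windows was 67.8% with both marks, 60.7% with H3K4me3 alone, 50.3% with H3K9me3 alone and 47.0% with neither. TGCCGC and TCCCGC are rich in G and C and hold a CpG, and the shares were not adjusted for composition. Such matches describe the letters and not binding.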

How the data were processed

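ChIP-seq for H3K4me3 and H3K9me3 was analysed in wild-type peritoneal macrophages, 1 library per mark, grouped by title; the knockout lists were only counted. CASAVA 1.4, Bowtie 0.12.8, MACS 1.4.2 and DiffBind are named, with build mm10, per the submitters' processing notes, without their roles. Peaks were called by the authors for each library with MACS 1.4.2, without a control file, with p-values up to 1e-05, a genome of 1870000000 bp taken as mappable, a local background of up to 10000 bp and 1 tag per position, per the file headers. Totals were 37378032 tags (H3K4me3) and 33007219 tags (H3K9me3), per the file headers. Each peak has a deposited tag count, a score (10 times the negative log10 of the p-value) and a fold enrichment, a linear ratio. These values are the authors' own. Scores and fold enrichments were used only within a list. Tag counts were also set against each other between the lists, as ratios without scaling for depth or enrichment. The deposited positions and widths are in bp.

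Overlaps, gene classes and CpG ratios were computed with Python 3.11.15, numpy 2.4.6, pandas 2.3.3 and scipy 1.17.1, and tested on simulated peaks. The gene table was RefSeq's for GRCm38.p6. Of 21887 protein-coding genes 17492 had a listed start; for the other 4395 either gene end was used, and no exons or introns were assigned. The 24 gene lists held 524 entries named one by one or as families. The members and lists were chosen with earlier results of these data known. The genes named are those with the most tags of either mark at the start or in the body, and up to 6 with both marks and 4 with either mark alone in each list; further list members are named as examples, chosen after their values were seen. The sequences and hexamers were likewise chosen after classes were seen. Alternatives were other overlaps, windows, score limits and gene sets.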

Additional observations from a re-analysis of the deposited data

How the results depend on the processing

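The median H3K9me3 peak holds 16 tags, so faint or wide domains could be missed, and a start called without H3K9me3 was not shown to lack it. The share of H3K9me3 peaks on H3K4me3 was 22.0% when 50% of the peak or the summit had to overlap, 38.4% with only peaks scoring 100 or more for either mark, 16.9% with equal numbers of top-scoring peaks and 21.8% after merging H3K9me3 peaks within 1000 bp. The share of H3K4me3 peaks with H3K9me3 was 3.02% with 50% of the peak covered, 5.35% with the score limit and 9.42% with the summit inside. H3K9me3 peaks with H3K4me3 had 1.25 to 1.38 times the median tags of those without under every overlap rule and the score limit.

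Genes with H3K9me3 alone numbered 133, 230 with a window of 2500 bp and 33 with the score limit, and genes with both marks 2435 and, with the score limit, 639. Over windows of 500 and 2500 bp, gene ends, the score limit, listed starts only and leaving out predicted genes (both added after the data were seen), 92.4% to 95.9% of H3K9me3 starts had H3K4me3. Genes with H3K9me3 in the body had H3K4me3 at the start in 80.2% with the score limit, 79.8% with at least 2 peaks and 83.3% at 10 to 100 kb. The median CpG ratio at starts with both marks was 0.87 with a window of 500 bp and 0.89 with the score limit, where H3K4me3 alone had 0.77 and H3K9me3 alone 0.50. The cause of these shifts was not tested. No paired analysis was possible because each mark has 1 library.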

Other observations

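Outside protein-coding genes the balance of the marks was different. Of 12731 lncRNA genes 20.2% had H3K4me3 alone within 1000 bp, 3.36% both marks and 1.37% (1.17 to 1.58) H3K9me3 alone. Of 9955 pseudogenes 5.24% had H3K4me3 alone, 0.924% both and 3.08% (2.75 to 3.44) H3K9me3 alone, so that H3K9me3 alone was more frequent than both marks together, the reverse of the order in protein-coding genes. Of 408 tRNA genes, transcribed by RNA polymerase III, 47.8% had H3K4me3 alone, 3.92% both and 0.735% H3K9me3 alone. Of 1228 miRNA genes 16.0% had H3K4me3 alone and 2.52% both.

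The share of H3K9me3 peaks on H3K4me3 differed between chromosomes, from 11.2% (8.43 to 14.6) of 436 on the X to 30.9% (27.9 to 34.0) of 913 on chromosome 11. Chromosome Y was the only one with more H3K9me3 than H3K4me3 peaks, 117 against 30, and 16 of those 117 formed 1 cluster of 45764 bp near Gm33272.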
